A study of Rattus norvegicus with 11 samples.

Results

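The genes of the cytosolic ribosome encode the protein parts of the particle that translates messenger RNA outside mitochondria. They were taken from an array study of Wistar rat liver as all genes whose symbol begins with Rps or Rpl and a digit, with Rpsa, Rplp0, Rplp1 and Rplp2, read from probe sets with a single gene symbol, and without S6 kinases, pseudogenes and paralogs named as "like". This gave 43 genes of the 14217 with such a probe set, 14 of the small and 29 of the large subunit. Each gene was read from its brightest probe set over the 11 arrays. The 3 control animals (numbers 1, 2 and 9) and the 8 animals in the high-dosed group (numbers 2, 3, 4, 5, 6, 8, 10 and 11) each gave 1 liver array. The high-dosed animals received mequindox, an antibacterial drug of the quinoxaline family. Per the labels all animals were 9 weeks old except high-dosed animal 8, at 10 weeks. The sources used here name neither the dose by mass, nor the length of dosing, nor a vehicle for the controls. Nothing states how animals shared cages or were dosed together, so p-values measure only the spread between these samples. The submitters had selected both groups for arrays with liver metabolite profiles and clinical chemistry of the animals in view.

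A ribosome is built from a small subunit, which reads the messenger RNA, and a large subunit, which joins amino acids, and each ribosomal protein other than those of the stalk is present in a single copy. Ribosomal proteins left unpaired are degraded. The messenger RNAs of ribosomal proteins are among the most abundant of any cell. Most begin with a C followed by a run of pyrimidines, the 5′ terminal oligopyrimidine (TOP) tract, through which the growth kinase mTOR and the RNA-binding protein Larp1 control their translation and stability. In liver the synthesis of ribosomes follows feeding and growth.

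The start sites are shown because this shared feature was not used to choose the genes. Of the 43 genes 38 had a RefSeq start window (assembly GRCr8, matched by symbol), and the windows below run from 15 bases before the annotated start to 15 bases from it, 5′ to 3′, for the genes that changed (Rps15, Rpl41), for some with high, low or near-zero differences (Rpl35a, Rps9, Rpl4, Rps6), for the stalk protein Rplp0 and for Rpl37a, which has a run of 12 bases. Capitals mark a C at the annotated start with the unbroken pyrimidines that follow it, at least 4 of them; windows without capitals have no such run at that base.
Rps15 (chr7:10068101-10068130, minus strand): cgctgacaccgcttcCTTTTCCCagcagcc
Rpl35a (chr11:81235007-81235036, minus strand): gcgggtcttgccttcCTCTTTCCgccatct
Rpl37a (chr9:81748076-81748105, plus strand): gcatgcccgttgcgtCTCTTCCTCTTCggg
Rplp0 (chr12:46718376-46718405, minus strand): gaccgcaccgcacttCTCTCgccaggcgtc
Rpl41 (chr7:1563483-1563512, minus strand): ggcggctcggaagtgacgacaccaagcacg
Rps6 (chr5:106420526-106420555, minus strand): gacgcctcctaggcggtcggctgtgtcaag
Rps9 (chr1:74430423-74430452, minus strand): tccggcggccacgtttctctttgtcacggg
Rpl4 (chr8:73566462-73566491, plus strand): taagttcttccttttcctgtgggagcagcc

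Such a run stood at the annotated start of 12 of the 38 genes (31.6%), against 2.63% of all 33469 start windows. All windows together outnumber the 14217 genes with a single-symbol probe set, and the kinds of gene they cover were not examined. When the run was allowed to begin up to 10 bases to either side of the annotated start, 27 of the 38 genes had one (71.1%), against 28.9% of all windows. The sequence CCGGAAG, on either strand, lay between 250 bases before and 50 after the start in 8 of the 38 genes (21.1%, against 8.75% of all). TATAAA, on either strand before the start, lay in 5 of them (13.2%, against 12.9%). The genes with a run at the annotated start did not stand apart in the array data. The median log2 fold change was 0.032 for the 10 of them with a tested value and 0.042 for the 26 without a run at that base. The ranges overlapped (0.016 to 0.16 against -0.096 to 0.19). Some of these 26 genes had a run within 10 bases of the annotated start. The values therefore cannot compare genes with and without a TOP tract.

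The ribosomal protein genes stood nearly level between control and high-dosed livers. Of the 43 genes 40 passed the filter on dim probe sets, and among these 2 rose, Rps15 and Rpl41, 0 fell and 38 did not pass the test (limma adjusted p below 0.05 over 10714 genes). The share called higher was 5% of the 40 genes, against 7.23% of all genes tested, and the share called lower was 0 of 40, against 2.6%. Before adjustment 8 of the 40 genes had a p below 0.05 (20%), against 25.3% of all genes. The log2 fold change was above 0 in 36 of the 40 genes, against 53.9% of all genes, but small, with a median of 0.036 against 0.017 over all genes tested. After quantile normalization the counts were equal, 2 called higher (5.27% of all genes), 0 called lower (2.96%) and 36 above 0 (51%), with a median of 0.037 against 0.0042 over all genes. The groups did not overlap for 4 genes, all higher in high-dosed animals, which is 10% of the 40 against 8.69% of all genes, and for 0 genes were all high-dosed animals below all controls (3.37%). After quantile normalization the same numbers of genes, 4 and 0, had no overlap, against 6.91% and 4.15% of all genes. These shares lay near or under those of all genes. The share above 0 was larger, but the genes were read on the same arrays and varied together in part. After median centring, which raised the median of all genes to 0.056, 37 of 40 genes were above 0 (62.8% of all), 0 were called higher (6.21%) or lower (1.3%), and for 0 did the groups lie apart in either direction (8.89% and 2.03%).

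**Figure D1:**
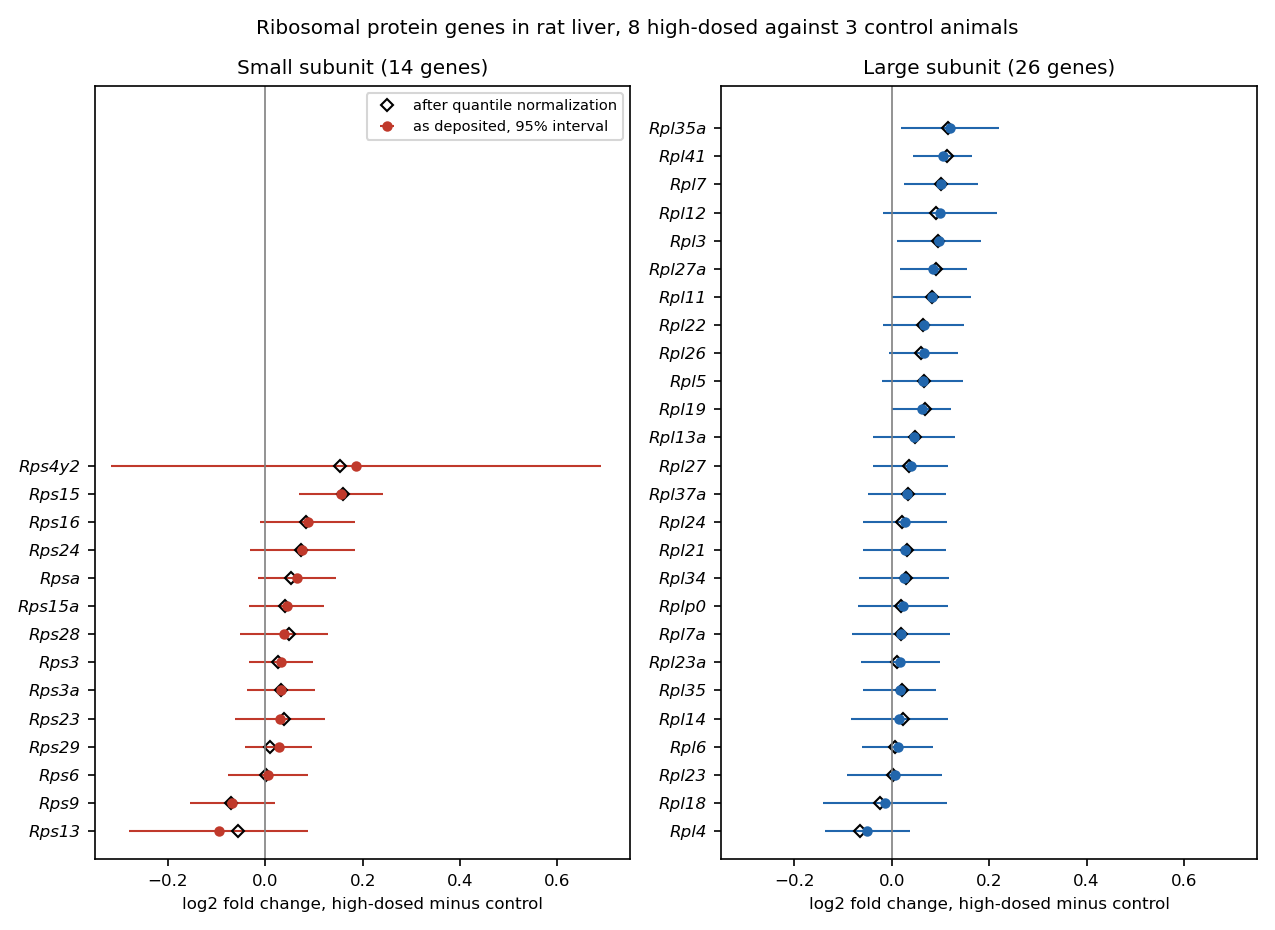
Log2 fold change (x axis, high-dosed minus control) of the 14 small subunit and 26 large subunit genes (y axis) with a tested value; filled points are values as deposited with limma's 95% interval, open diamonds are values after quantile normalization. Most points lie just right of 0, from -0.068 to 0.16 apart from the dim Rps13 and Rps4y2, and the diamonds sit close to the points.

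As deposited, the values varied little between animals. Of the 40 genes 39 had a 95% interval within 0.32 of 0 on the log2 scale in either direction, the exception being Rps4y2, and 32 of the intervals included 0. Among the 38 genes that lay in the brightest 10% of all genes tested, the intervals ran from -0.16 to 0.24. Their median SD within groups was 0.050 on the log2 scale, against 0.084 over the 1072 genes of the brightest 10% and 0.14 over all genes tested. The brightest 10% began at a mean log2 of 11.80, under the lowest of the 38 genes (Rpl21, 12.79). For the 8 tested hepatocyte markers the median SD was 0.033, so a small SD was not particular to the ribosomal protein genes. These values hold for the scale as deposited. After median centring the SD was 0.11 for the 38 genes, 0.12 for the brightest 10% and 0.14 for all genes, and the median SE of the 40 genes was 0.073 in place of 0.039, so their intervals were wider. The size of the difference, taken without its sign, had a median of 0.045 for the 40 genes, 0.086 for the brightest 10% and 0.12 for all genes. In that brightest 10% 7.74% of genes were called higher, 6.06% lower and 49.2% had a log2 fold change above 0, with a median of -0.0041. After median centring 676 of these 1072 genes were above 0, with a median of 0.034. The intensities of the 38 genes ran from 6654 to 17571, under the highest value of the table, 34328.

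**Figure D2:**
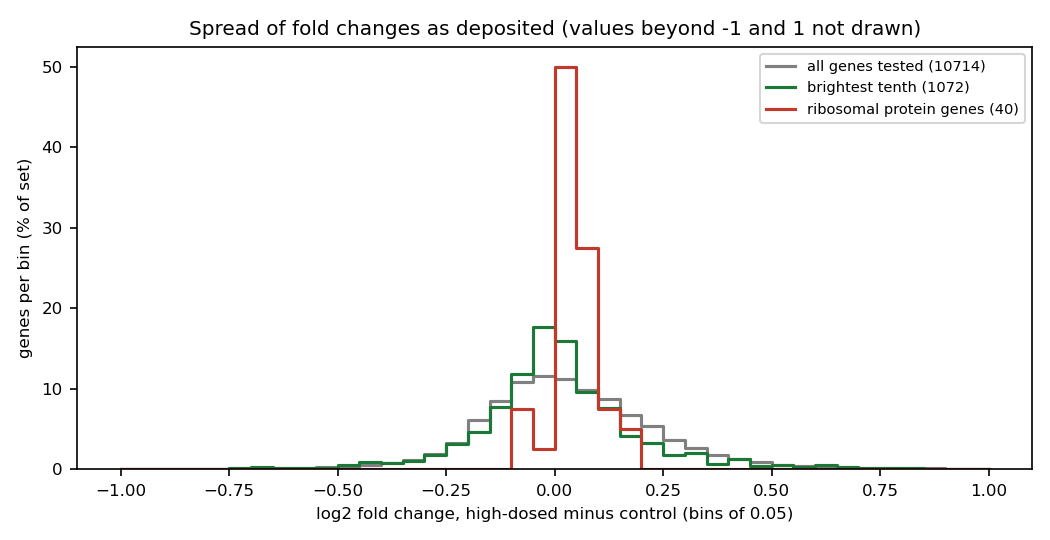
Share of genes (y axis, percent of each set) by log2 fold change as deposited (x axis, bins of 0.05, values beyond -1 and 1 not drawn) for all 10714 genes tested, the 1072 genes of the brightest 10% and the 40 ribosomal protein genes. The ribosomal protein genes form a narrow peak just above 0, with a median of 0.036, inside the wider spread of the other sets.

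Among the small subunit genes, Rps15 was the 1 gene that rose. It encodes a protein of the head of the subunit, near the bound transfer RNAs. Its intensity was 8582, 9693 and 9095 in controls 1, 2 and 9, and from 9841 to 10653 with a median of 10162 in the high-dosed animals. All 8 high-dosed animals lay above the highest control, and control 1 was the lowest array. The group means were 9123 ± 556 (SD, n = 3) and 10159 ± 259 (SD, n = 8), 11.4% higher in the high-dosed group. The log2 fold change was 0.16 ± 0.040 (SE, limma adjusted p = 0.0285) as deposited and 0.16 ± 0.041 (adjusted p = 0.0286) after quantile normalization. The call was lost without control 1 (0.11, limma adjusted p = 0.189) or control 9 (0.15, adjusted p = 0.0747), after median centring (0.19, adjusted p = 0.116) and without a variance trend (adjusted p = 0.105).

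Rps6, the protein phosphorylated by the S6 kinases downstream of mTOR, stood at 14198, 14517 and 13868 in the 3 controls and from 13448 to 15094 with a median of 14265 in the high-dosed animals. The groups overlapped throughout, with a log2 fold change of 0.0063 ± 0.038 (SE, limma adjusted p = 0.937) and an interval from -0.076 to 0.088. Rps3, which lines the entry of the messenger RNA channel, was the steadiest of the 38 bright genes, with an SD within groups of 0.022 on the log2 scale. Its intensity was 8807, 9241 and 9022 in controls and from 9087 to 9419 in high-dosed animals (log2 fold change 0.033 ± 0.030, SE, limma adjusted p = 0.548). Rps9, a protein of the body of the subunit, had the lowest value of the bright small subunit genes, with 8358, 8820 and 8556 in controls and a range from 7774 to 8715 in high-dosed animals. Only high-dosed animal 10 lay above the control mean of Rps9, and the log2 fold change of -0.068 ± 0.041 (SE) did not pass (limma adjusted p = 0.335).

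The remaining small subunit genes named here did not pass either. Rps16, of the head, was 11559, 11481 and 11362 in controls. In high-dosed animals it ran from 11358 to 12962, with animals 2, 3, 8, 10 and 11 at 12194 or more and animals 4, 5 and 6 among or near the controls (log2 fold change 0.087, limma adjusted p = 0.263). Rps24, which takes part in processing of the ribosomal RNA, was 0.076 (adjusted p = 0.378), with 7 of 8 high-dosed animals above the highest control of 9511 and animal 2 below all controls at 8673. The array of high-dosed animal 2 also had the highest ratios of 3′ to 5′ signal, 2.74 for beta-actin and 1.32 for Gapdh, and the part of this in the value was not tested. Rpsa, also known as a laminin receptor, was 0.066 (adjusted p = 0.301) with all 8 high-dosed animals above the control mean, and 0.025 without control 9. Rps29 stood at 0.028 (adjusted p = 0.632). The dim Rps13 (122 to 167 over all arrays) was -0.096 ± 0.085 and the dim Rps4y2 (245 to 714) 0.19 ± 0.23 (SE, limma adjusted p = 0.531 and 0.664), with an SD within groups of 0.12 and 0.40, so little can be read from either.

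**Figure D3:**
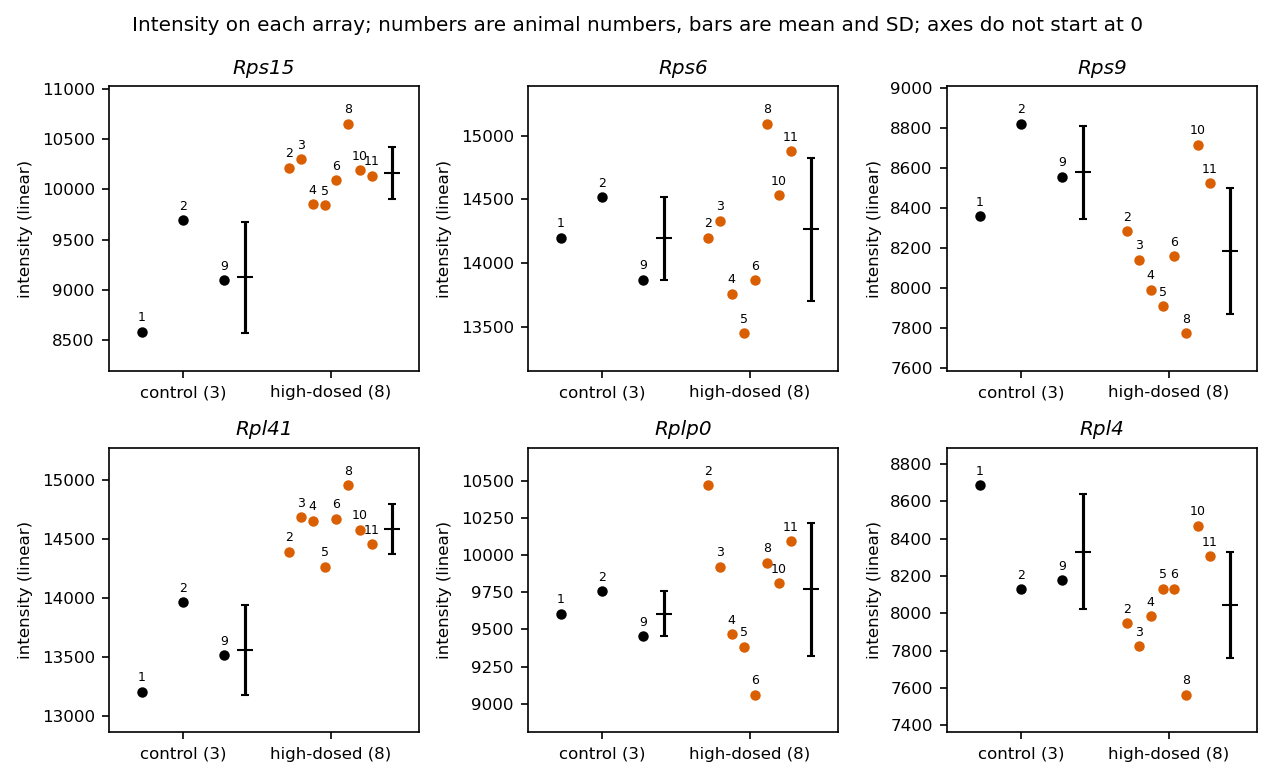
Intensity on the linear scale (y axes, which do not start at 0) of Rps15, Rps6, Rps9, Rpl41, Rplp0 and Rpl4 in 3 control and 8 high-dosed animals (x axis); numbers beside points are animal numbers and bars give the mean and SD. For Rps15 and Rpl41 all high-dosed points lie above the controls, while for Rps6, Rplp0, Rps9 and Rpl4 the groups overlap.

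Among the large subunit genes, Rpl41 was the 1 gene that rose. It encodes one of the smallest proteins of the cell, which sits between the subunits. Its intensity was 13205, 13962 and 13512 in controls 1, 2 and 9 and from 14267 to 14957 with a median of 14618 in high-dosed animals, without overlap. The means were 13560 ± 380 (SD, n = 3) and 14583 ± 213 (SD, n = 8), 7.55% higher in the high-dosed group. The log2 fold change was 0.10 ± 0.028 (SE, limma adjusted p = 0.0347), and 0.11 ± 0.030 (adjusted p = 0.0323) after quantile normalization. The call was lost without control 1 (0.086, limma adjusted p = 0.194) or control 9 (adjusted p = 0.0894), after median centring, without a variance trend, and without any 1 of high-dosed animals 3, 4, 6, 8, 10 or 11 (highest adjusted p = 0.0595).

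A further 2 large subunit genes had no overlap between groups without passing the test. Rpl7, which binds near the 5S RNA, was 10254, 10523 and 10443 in controls and from 10778 to 11853 in high-dosed animals (log2 fold change 0.10 ± 0.035, SE, limma adjusted p = 0.0887). Rpl27a was 11769, 12200 and 12220 in controls and from 12360 to 13313 in high-dosed animals (0.085 ± 0.032, adjusted p = 0.113). In both the highest of the high-dosed animals was number 11. Rpl35a, mutated in some families with Diamond-Blackfan anaemia, had the highest value of the subunit, 0.12 ± 0.047 (adjusted p = 0.129), but control 2 (9383) lay among the high-dosed animals (8811 to 10032), and the value was 0.078 without control 1. Rpl3, which reaches to the centre where peptide bonds form, was 0.096 (adjusted p = 0.149), with all 8 high-dosed animals above the control mean, and 0.056 without control 9.

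Rpl5 and Rpl11, which travel with the 5S RNA and as a free particle bind the p53 regulator Mdm2, were 0.063 ± 0.038 and 0.082 ± 0.038 (SE, limma adjusted p = 0.337 and 0.193). Rpl23, which also binds Mdm2, was 0.0057 ± 0.045 (adjusted p = 0.952), with controls from 11146 to 11781 inside the high-dosed range from 10665 to 12408. Of the stalk that recruits translation factors, Rplp0 was 9606, 9757 and 9453 in controls and from 9060 to 10472 in high-dosed animals, with a log2 fold change of 0.023 ± 0.043 (adjusted p = 0.774). Rpl12, at the base of the stalk, was 0.099 ± 0.054 (adjusted p = 0.283), and high-dosed animals 8 and 11 stood apart at 9862 and 9952 against 8358 to 9276 in the other 6. Rplp1, Rplp2, Rps19 and Rps27a had no probe set of their own symbol.

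Rpl4, whose long loop lines the tunnel by which the new protein leaves, had the lowest value of the large subunit, -0.050 ± 0.041 (SE, limma adjusted p = 0.485). It stood at 8686, 8130 and 8176 in controls and from 7564 to 8468 in high-dosed animals, with control 1 the highest array, and the value was -0.020 without it. Of the 9 genes listed for the tunnel and its rim 5 had a tested value, 4 of them above 0, and 0 passed. Rpl18 (-0.014), Rpl6 (0.012), Rpl14 (0.016) and Rpl13a (0.046), the last also part of a complex that silences inflammatory messenger RNAs, did not pass (limma adjusted p from 0.508 to 0.911). Rpl28, Rpl30 and Rpl39 were under the filter, with intensities from 45.5 to 125.1 over all arrays, and were not tested. These genes and the dim Rps13 were each read from 1 probe set, whose low signal need not be the level of the messenger RNA.

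Both subunits gave nearly the same value. The median log2 fold change was 0.036 over 14 small subunit genes, 12 of them above 0, and 0.035 over 26 large subunit genes, 24 of them above 0. After quantile normalization it was 0.040 and 0.034. In each subunit 1 gene was called higher and 0 lower. Before adjustment the limma p was below 0.05 in 1 of 14 small and 7 of 26 large subunit genes (25.3% of all genes). The groups did not overlap, with high-dosed higher, for 1 small and 3 large subunit genes (8.69% of all genes). Whether the subunits differ in these counts was not tested. For each animal the mean of the 12 bright small subunit genes minus that of the 26 large subunit genes, on the log2 scale relative to the 11 arrays, averaged 0.00090 ± 0.015 (SD, n = 3) in controls and -0.00030 ± 0.012 (SD, n = 8) in high-dosed animals. The difference between subunits was thus at most 0.023 in either direction in any animal.

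The small upward lean was not shared by all high-dosed animals. The mean of the 38 bright genes, as log2 signal relative to the 11 arrays, was -0.044, -0.0097 and -0.044 in controls 1, 2 and 9. In high-dosed animals 2, 3, 4, 5 and 6 it was 0.0033, 0.018, -0.013, -0.030 and -0.0081, and in animals 8, 10 and 11 it was 0.043, 0.037 and 0.048. Control 2 thus lay above high-dosed animals 4 and 5, and the 3 high-dosed animals with the highest numbers were the 3 highest arrays. After quantile normalization the same 3 were at 0.050, 0.033 and 0.051, and animals 4, 5 and 6 were at -0.014, -0.037 and -0.021. After median centring the values spread further. Controls 1, 2 and 9 were at -0.079, -0.080 and -0.023, high-dosed animals 2, 3, 4, 5 and 6 at 0.044, -0.023, -0.082, -0.048 and -0.14, and animals 8, 10 and 11 at 0.15, 0.12 and 0.16. There control 9 lay above high-dosed animals 3, 4, 5 and 6, and animals 8, 10 and 11 were the highest. Median centring raises all values of an array with a low median. The arrays of animals 8, 10 and 11 had the lowest medians, so their rank on that scale is not a separate observation. Among the animals numbered up to 6, 2 of them controls and 5 high-dosed, 25 of the 40 genes were above 0, with a median of 0.015 against 0.039 over all genes. Within numbers 8 and above, with control 9 as the single control, 35 of 40 were above 0, with a median of 0.097 against -0.00060 over all genes. The difference between these was not tested. Animal number 2 occurs in both groups. The labels do not say that numbers mark an order or batch shared by the groups. Without high-dosed animals 8, 10 and 11, 28 of the 40 genes were above 0, with a median of 0.020 against 0.052 over all genes, and 0 were called. The arrays of animals 8, 10 and 11 also had the lowest median intensities, 149.3, 153.0 and 149.0, against 159.3 to 186.6 on the other arrays, and the part of this in the result was not tested.

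**Figure D4:**
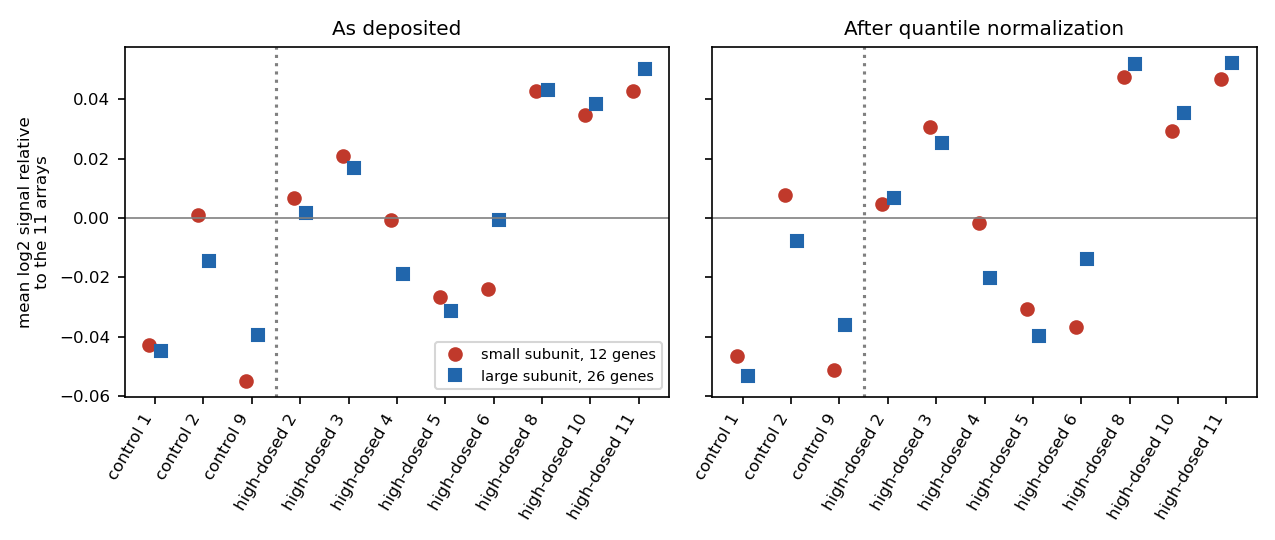
Mean log2 signal relative to the 11 arrays (y axis) of the 12 small (circles) and 26 large subunit genes (squares) in each animal (x axis), as deposited and after quantile normalization. Both subunits go together in each animal, and high-dosed animals 8, 10 and 11 are the highest in both panels.

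As deposited, the genes varied together only in part. Over the 703 pairs of the 38 bright genes the median Pearson correlation of deviations from the group means over the 11 animals was 0.31, against 0.0048 for pairs of the brightest 10% and 0.044 for pairs of all genes. It was 0.25 within the small subunit, 0.31 within the large and 0.32 between them, so pairs across subunits were as alike as pairs within one. These values describe points that share an array, and 504 of the 703 pairs were above 0. Correlations were computed on the scale as deposited only. After median centring all 38 genes lay above their own means in high-dosed animals 8, 10 and 11, and 0 of 38 in high-dosed animal 6. The most alike pair was Rpl37a with Rps6 (0.95), 1 from each subunit, and among the least alike was Rpl21 with Rps3 (-0.77). High-dosed animals 4 and 5 were low for Rpl18 (8417 and 8665) and Rpl14 (7085 and 7005). In Rpl7a, too, they were the lowest arrays (12986 and 13217, with the others at 13810 or more). Rpl4 and Rps9 were lowest in high-dosed animal 8 (7564 and 7774), the array where Rpl23, Rpl26, Rps15 and Rpl41 were highest. Rpl7a, Rpl26 and the pairing of Rpl4 with Rps9 were picked after their values were seen.

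**Figure D5:**
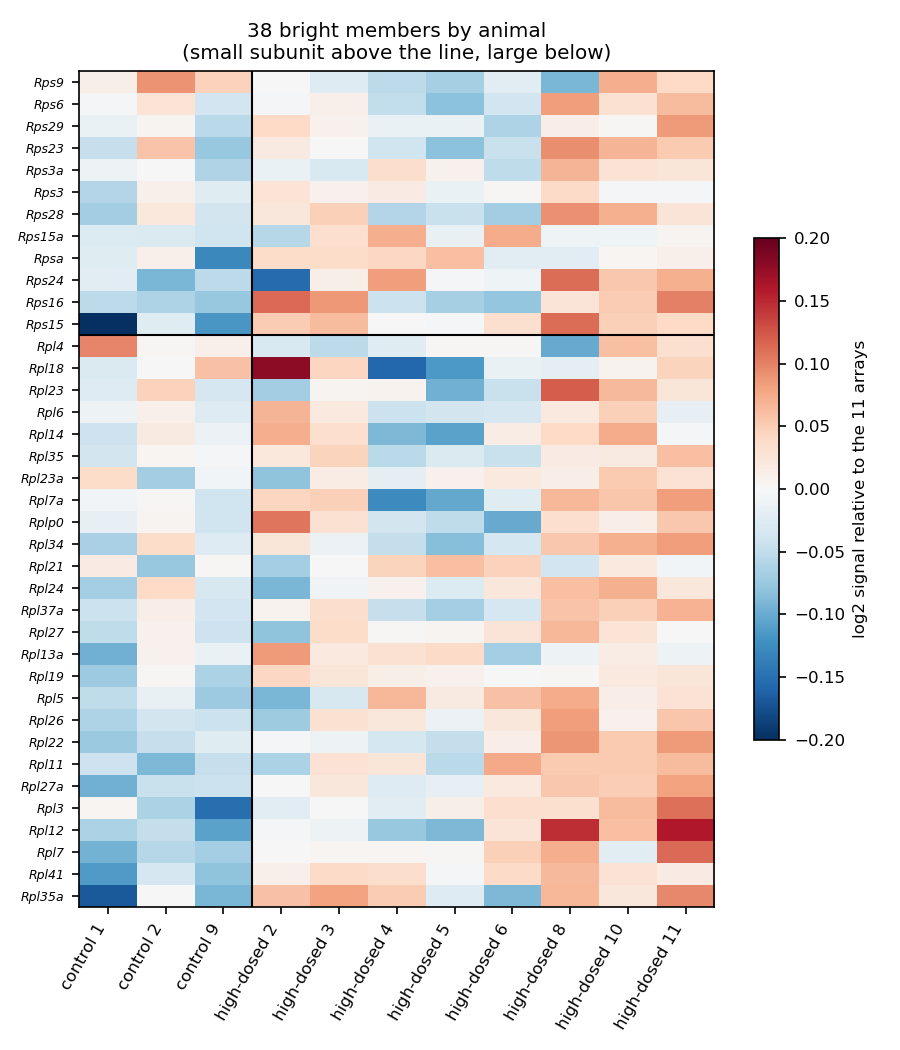
Log2 signal of the 38 bright genes (rows, small subunit above the line) in the 3 control and 8 high-dosed animals (columns), relative to each gene's mean over the 11 arrays; red is higher and blue lower, on a scale from -0.2 to 0.2. Most genes are slightly blue in controls 1 and 9 and red in high-dosed animals 8, 10 and 11, while Rps9, Rpl4 and Rpl18 depart from this.

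A further 33 probe sets name a ribosomal protein together with pseudogenes or other genes, so that no gene can be named from them, and they cover 27 ribosomal protein genes that have no probe set of their own. Of these 33, 28 were above 0 with a median log2 fold change of 0.074, from -0.060 to 0.18. After adjustment over probe sets 2 were called higher and 0 lower, where 4.63% of all probe sets were called higher. The shares of all probe sets above 0 or called lower were not computed. Over genes tested these shares were 53.9% and 2.6%. For Rpl3, Rpl7, Rpl14 and Rps24 a dimmer probe set of the same gene had the opposite sign (-0.028, -0.061, -0.18 and -0.0086), and 0 of these passed, whereas both dimmer probe sets of Rpsa were above 0 (0.089 and 0.11). Rat ribosomal protein genes have many processed copies, and a probe set can read these too.

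Genes that make or serve ribosomes were called at counts to be read beside the shares of all genes, 7.23% higher and 2.6% lower. Of 14 tested genes of other RNAs with a TOP tract 1 rose, Eif4b, an initiation factor (0.26 ± 0.065, SE, limma adjusted p = 0.0233), and 0 fell, with a median of 0.038. The highest value of this list was that of Gas5, whose RNA is noncoding, and it did not pass (0.40, limma adjusted p = 0.0546). Of 24 initiation factors 1 rose, Eif2b2 of the guanine nucleotide exchange factor of eIF2 (0.38 ± 0.075, adjusted p = 0.00883), and 0 fell (median -0.020). Of 53 ribosome assembly genes 3 rose and 0 fell (median 0.053), namely Pes1 (0.34), Utp15 (0.29) and Nob1 (0.30), with adjusted p from 0.00788 to 0.0298. Of 13 genes of RNA polymerase I, which transcribes the large ribosomal RNAs, 1 fell, Polr1b (-0.58 ± 0.12, SE, limma adjusted p = 0.00894), and 1 rose, Polr1d (0.27), a subunit shared with RNA polymerase III. Taf1d of the same list did not pass as deposited (0.32, limma adjusted p = 0.0621) but did after quantile normalization (0.35, adjusted p = 0.0495). Of 18 genes of growth control 1 rose, Eif4ebp1, the mTOR target that holds back cap-dependent translation (0.36 ± 0.082, adjusted p = 0.0182), and 0 fell. Mtor (0.026), Larp1 (-0.10), Myc (-0.074) and the S6 kinase gene Rps6kb1 (-0.031) did not pass (limma adjusted p from 0.379 to 0.884), and Mtor was -0.0195 after quantile normalization. Without control 1 the calls of Eif4b, Pes1, Utp15, Nob1, Polr1b, Polr1d and Eif4ebp1 were lost (adjusted p from 0.0546 to 0.176) and that of Eif2b2 was kept. Among the animals numbered up to 6 those of Eif2b2, Eif4b, Utp15 and Polr1d were lost (adjusted p from 0.0707 to 0.217). Those of Eif4b and Nob1 were also lost without control 2, those of Utp15 and Polr1d without control 9, that of Eif4ebp1 without either, that of Utp15 without high-dosed animal 4, after quantile normalization and as a mean of its probe sets, and that of Eif4b after median centring. Without high-dosed animals 8, 10 and 11 those of Eif4b, Utp15, Nob1 and Polr1d were lost.

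The paralogs named as "like" were apart from the rule, and of these Rpl7l1 (0.066) and Rps27l (-0.043), with Rpl26l1 (0.043) added after its value was seen, had a tested value and did not pass (limma adjusted p from 0.666 to 0.781).

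The tissue label was met by bright hepatocyte markers, whose summed intensity ran from 151237 to 154205 in controls and from 150912 to 157137 in high-dosed animals. Of 8 tested hepatocyte markers Apoa1 rose (0.35) and Asgr1 fell (-0.18). Of 5 endothelial markers 3 rose, Pecam1 (0.60), Emcn (0.55) and Stab2 (0.40), while Kdr (0.17) and Lyve1 (-0.12) did not pass (limma adjusted p = 0.0677 and 0.286), with sums from 9095 to 10080 in controls and from 10225 to 11383 in high-dosed animals, without overlap. Of 6 tested macrophage markers 1 rose, Mrc1 (0.31), and 5 did not pass, from Cd163 at -0.22 to Clec4f at 0.30, with sums from 11376 to 15464 and from 14890 to 20515, and of the cholangiocyte markers the 1 tested, Epcam, rose (0.83). Stellate (5 tested), erythroid (2), neutrophil (2) and lymphocyte markers (1) had 0 calls. Over all genes tested 7.23% were called higher and 2.6% lower. The calls of Stab2 and Mrc1 were lost after quantile normalization (limma adjusted p = 0.0557 and 0.0700). Of the 35 markers with a value 0 stood at the lowest value of the table. Fewer cells of a type and less RNA per cell cannot be told apart in whole tissue, and the part of cell composition in the values of Rps15 and Rpl41 was not tested. The ratio of 3′ to 5′ signal of beta-actin, a measure of RNA integrity, was 2.22 ± 0.080 (SD, n = 3) in controls and 2.27 ± 0.23 (SD, n = 8) in high-dosed animals.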

How the data were processed

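Liver RNA of 11 rats was measured on Affymetrix arrays, 1 per animal. The authors' deposited values were probe set intensities on a linear scale, made with MAS5 per the submitters' processing notes. How arrays were scaled, the version of the software and the genome build are not given in the sources used here. Precision is limited by the number of arrays.

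Intensities were taken as log2(intensity + 55.26), the 20th percentile of all values being added, which understates changes of dim genes. Probe sets whose mean lay under the 40th percentile (7.40) and 57 control probe sets were left out, leaving 18625 probe sets and 10714 genes. Gene symbols came from the platform annotation. The contrast of high-dosed minus control was fitted with limma 3.58.1 (R 4.3.3) and an intensity trend, on all these probe sets, with Benjamini-Hochberg adjustment over genes and calls at an adjusted p below 0.05. Tests were two-sided. The fit was tested on simulated data. Intervals are limma's 95% intervals.

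Genes named were those called, the 4 highest and 4 lowest of each subunit, those with probe sets of opposite sign, those without overlap, and fixed members of known role. The genes and lists were chosen with earlier results of these data known, so no list was tested. Alternatives were quantile normalization, median centring, other pseudocounts and filters, no trend, a mean over probe sets, an animal number block and leaving out animals. The brightest 10% of genes and the windows around start sites were chosen after the data were seen.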

Additional observations from a re-analysis of the deposited data

Results flagged for a closer look

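Of 27 values over the 8 high-dosed animals, 25 genes and 2 means over genes, 1 had a single animal far from the others. Rps24 in high-dosed animal 2 stood at 13.09 on the log2 scale, with the nearest other animal at 13.24, a gap of 0.544 of the group's range where 0.526 is the limit. This array had the highest 3′ to 5′ ratios of the 11, 2.74 for beta-actin and 1.32 for Gapdh, and their part in the value was not tested. Chance gives such a gap in about 1 in 20 groups.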

How the results depend on the processing

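The median log2 fold change of the ribosomal protein genes stayed above 0 in every setting run, and the count called stayed at 2 or fewer of 40. Leaving out 1 animal at a time gave 0 to 2 genes called, medians from 0.030 to 0.057 (0.028 to 0.054 for the small and 0.031 to 0.057 for the large subunit) and a difference between subunits from -0.0051 to 0.0043, while 295 (without control 1) to 1354 (without high-dosed animal 2) of all genes were called; 690 were called without control 2. The count was 0 without control 1 or 9. It was also 0 after median centring (medians 0.074 in all, 0.074 small and 0.073 large, where the median of all genes was 0.056) and without a variance trend.

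Within animal numbers 6 and below the count was 0, the small subunit median 0.0067, the small minus large difference -0.015 and 566 of all genes were called. Within numbers 8 and above, chosen after seeing the data and with a lone control whose spread is assumed equal to that of the high-dosed group, the count was 0, the medians 0.097 in all, 0.10 (small) and 0.094 (large), and 4 of all genes were called. Without high-dosed animals 8, 10 and 11, also chosen after seeing the data, the count was 0, the difference between subunits -0.016 and 666 of all genes were called.

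Some genes turned sign, all of them uncalled, including the dim Rps4y2 and Rps13. Rpl18 was 0.025 after median centring and 0.0021 within numbers 6 and below, and ran from -0.040 to 0.011 leaving out 1 animal; Rpl14 was -0.082 as a mean of its probe sets. Within numbers 6 and below Rpl14 was -0.0036, Rpl23 -0.050, Rpl6 -0.0052, Rplp0 -0.0047, Rps13 0.0098, Rps29 -0.0039, Rps4y2 -0.089 and Rps6 -0.045. Without high-dosed animals 8, 10 and 11 Rpl14 was -0.0036, Rpl23 -0.035, Rps4y2 -0.070 and Rps6 -0.028. Leaving out 1 animal, Rpl23 ran from -0.011 to 0.031 and Rps6 from -0.010 to 0.023. The cause of these changes was not tested.

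The labels pair no control with a high-dosed animal, so no paired analysis was run. Animal number 2 occurs in both groups for different rats, and the labels do not link animals by number. When animals numbered 8 or more formed a block of their own, 2 of the 40 genes and 1453 of all genes were called.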
